A study of Bubalus bubalis with 8 samples.

Results

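The milk fat synthesis and globule genes examined here were FASN, ACACA, SCD, LPL, CD36, FABP3, LPIN1, PLIN2, BTN1A1 and XDH, 10 of the 24839 gene names on a bovine oligonucleotide array. They were chosen by name, with every probe that carries one of these names. They had 34 probes, of which 33 were used. The other one, a FABP3 probe, lay in a region of the array that was dark on the control array, and its values are given apart.

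The RNA came from a primary culture of buffalo mammary epithelial cells (MECs), made from the mammary tissue of 1 healthy adult female buffalo and used at passage 10. Unstressed cells stayed at 37 °C throughout and are called CTR. Heated cells spent 1 h at 42 °C, returned to 37 °C, and were harvested by trypsin at 1 of 7 times after the heat, the first of them 30 min and the others 2, 4, 8, 12, 16 and 24 h. All cultures had 5% CO2, and each of the 8 conditions had 1 array with 1 colour (Cy3).

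Single arrays leave no spread between replicates to compare with, so no p-value is given, and their number limits the precision of every value. The time points are compared with 1 CTR array, and all these comparisons share it. The paper states that control plates were harvested at matching times, but the labels give no harvest time for CTR. In a change from CTR, heat and time in culture therefore cannot be told apart. The first slide held CTR, 8 h, 12 h and 24 h, and the second held 30 min, 2 h, 4 h and 16 h. Where 4 levels are given for a slide, they are in this order. The probes were designed on cattle sequence and read buffalo RNA. Signals are not absolute, so each probe is compared only with itself across arrays. In RNA from a whole culture, fewer cells of a type and less RNA per cell cannot be told apart.

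Milk fat is made in the secretory epithelial cell. Fatty acids are built from acetate and beta-hydroxybutyrate or taken up from blood lipoproteins, joined to glycerol in the endoplasmic reticulum, and stored in droplets that leave the cell wrapped in its apical membrane. This secretion is a mark of lactation, and most of its genes are known to be expressed far more in lactating than in resting or cultured mammary cells.

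The text refers to some probes by their sequence, 5′ to 3′ and in lower case. These 8 probes of 60 bases are shown because they stand at different places of one transcript, come from different records of one gene, or were detected at 4 h and 16 h and on few other arrays.
FASN A_73_P113101: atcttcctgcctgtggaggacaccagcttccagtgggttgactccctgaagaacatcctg
FASN A_73_101920: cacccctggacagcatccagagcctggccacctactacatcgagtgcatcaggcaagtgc
FASN A_73_104455: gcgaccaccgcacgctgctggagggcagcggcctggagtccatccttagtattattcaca
SCD A_73_P101286: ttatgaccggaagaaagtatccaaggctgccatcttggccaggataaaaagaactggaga
FABP3 A_73_P378211: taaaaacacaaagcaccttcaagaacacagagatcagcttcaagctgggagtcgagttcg
BTN1A1 A_73_P062736: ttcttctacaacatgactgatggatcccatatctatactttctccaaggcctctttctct
CD36 A_73_P283206: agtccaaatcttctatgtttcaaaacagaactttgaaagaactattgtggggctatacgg
CD36 A_73_P252166: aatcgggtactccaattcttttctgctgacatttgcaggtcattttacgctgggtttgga

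Levels are log2 signals above the 75th percentile of the array. A probe was detected on an array when the scanner software marked it well above background. At 30 min, where the deposited log2 values were used, a value of 0.24 or more, the highest limit among the scanner files, counted as detected. The detection limit of the other 7 arrays lay between -1.95 (2 h) and 0.24 (24 h). A dim probe has only a bound, so a fold against it is given as at least that size. The SD between spots of 1 probe was 0.19 (8 h) to 0.50 (16 h) on the 7 arrays other than 30 min. It rests on only 14 (24 h) to 24 (2 h) detected probes with several spots per array. It was applied to all member probes alike. The deposited values hold no spots, so 30 min was assumed to vary like CTR (0.21). This gives an error within arrays of 0.31 for the mean of 4 h and 16 h minus that of the other 6 arrays.

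All keratins listed as epithelial markers were detected on all 8 arrays except KRT18, which was detected at 2 h and 16 h, and CDH1 and EPCAM were detected on all 8. KRT8 was at 6.39 to 6.99 on the slide of CTR, and at 3.29 to 4.71 on the other slide. KRT7 (5.68 to 6.31 against 4.16 to 4.83) and KRT5 (7.22 to 7.91 against 6.04 to 7.17) were also lower there. KRT14, KRT19, EPCAM and CDH1 overlapped between the slides, with CDH1 at 2.34 to 3.41 on the first and 3.00 to 3.78 on the second. The 30 min scanner intensities stood apart, with an SD between spots of 2.03 and 1462 outlier marks against 4 to 72 on the other arrays.

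For 6 of the 10 milk fat genes, 1 or more probes were highest at 4 h and 16 h. Over the array this held for 1426 gene names, of 11653 with a probe detected on an array and 23715 with a kept probe. Of the 33 probes, 17 (51.5%) were detected at both and lay above all the other 6 arrays, against 9.4% of the 17984 probes that were detected on an array and 4.21% of all 40153 probes kept with a value on every array. Without the 30 min array 18 did, and with its scanner intensities 10. The 17 were all 7 SCD probes, all 3 of FABP3 and of BTN1A1, 2 of the 5 of FASN, 1 of the 3 of LPL and the single XDH probe. No member probe was called below all the others at 4 h and 16 h, against 1.91% of probes tested. That call needs detection on all the other 6 arrays. Only 8 member probes were detected in CTR, so the rest of the members could not be called below. ACACA and LPIN1, with 3 probes each, were not detected on any array.

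The number of member probes detected followed the same arrays. It was 8, 8, 11 and 8 on the first slide and 13, 17, 24 and 21 on the second. At 4 h that was 72.7% of the member probes, with 37.5% of all probes detected on that array. At 16 h it was 63.6% with 25.5%, at 2 h 51.5% with 40.1%, and at 30 min 39.4% with 23.1%. On the first slide it was 24.2 to 33.3% with 23.2 to 33.3%. The detection limits differ between arrays, so the counts alone are not comparable. The mean of 4 h and 16 h minus that of the other 6 arrays had a median of 2.82 over the members with a value on all arrays, dim ones included, and of 0.01 over the probes detected on an array. With every dim value set to the detection limit of its array, these medians were 1.67 and -0.15. A probe at the lowest value or at the limit on all 8 arrays takes -0.15 or -0.39 by construction. Of the 24 member probes detected anywhere, 13 were not detected on any array of the first slide. The share of all probes with this pattern was not counted, so the number cannot be set against the array.

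**Figure D1:**
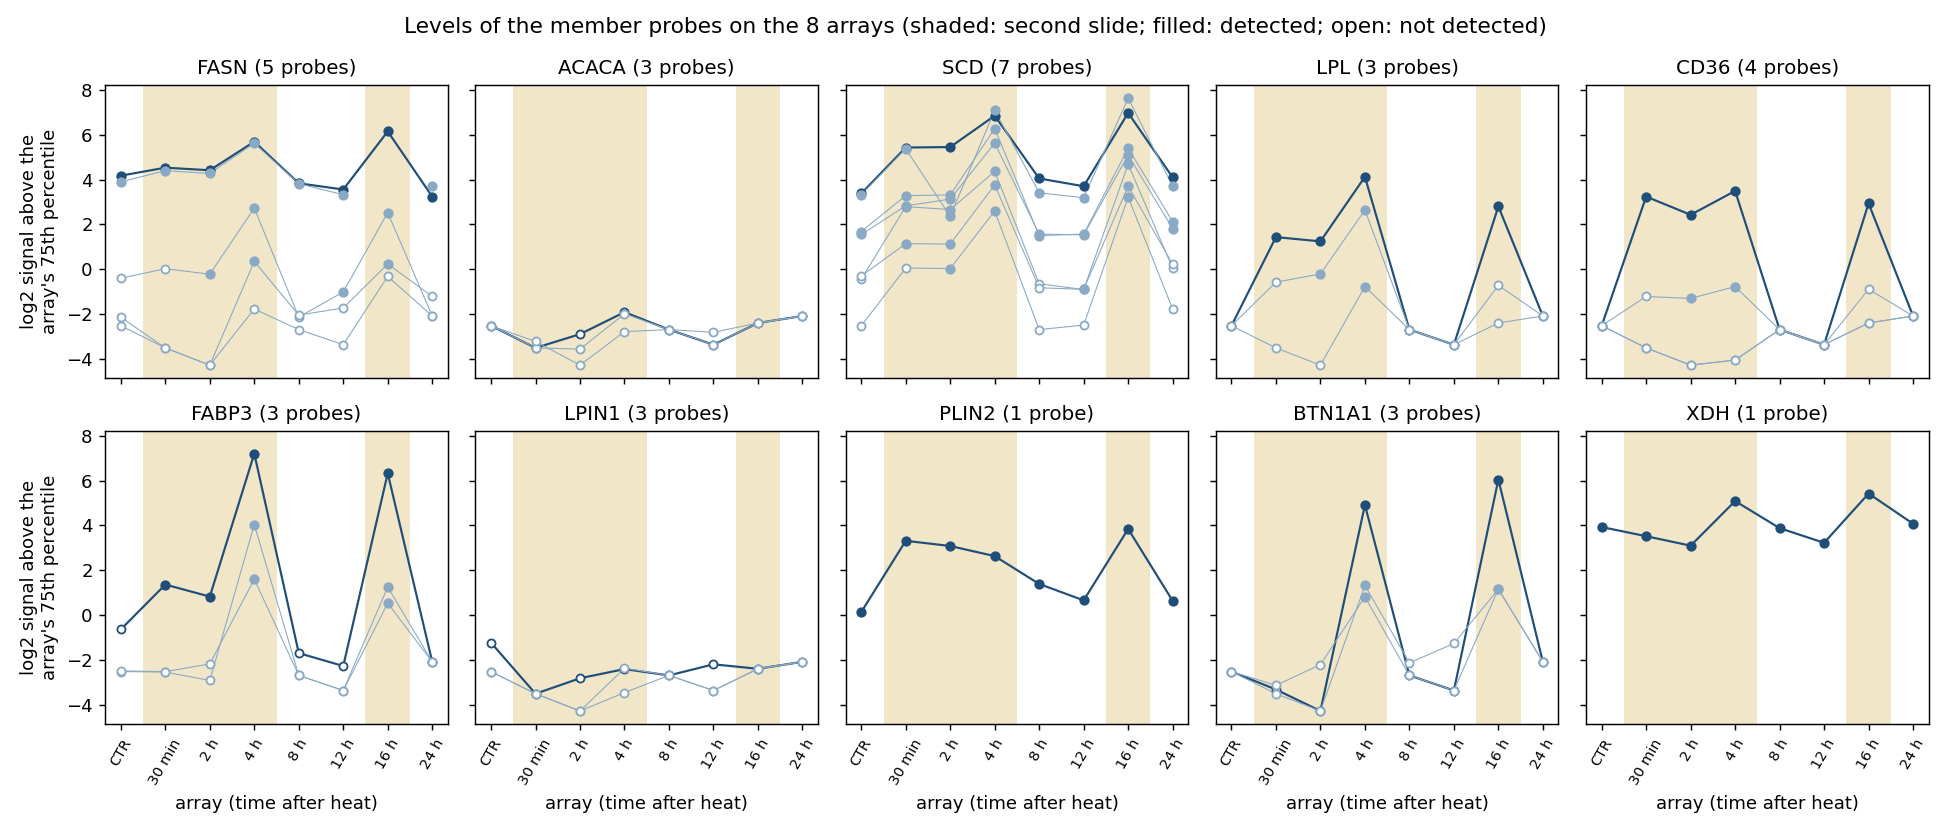
Each panel plots the log2 signal above the array's 75th percentile (vertical axis) of the probes of 1 gene on the 8 arrays (horizontal axis). Dark lines are the probe that stands for the gene and pale lines its other probes, filled points are detected and open points are not, and shading marks the second slide. FABP3 and BTN1A1 peak at 4 h and 16 h, and ACACA and LPIN1 have open points throughout. The dark line of CD36 is at 2.43 to 3.49 on all shaded arrays, and its pale lines are below 0 there.

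FASN, fatty acid synthase, builds palmitate and, in the mammary gland of ruminants, shorter fatty acids. Its probe with the highest mean level (A_73_P174332, chr19:52189948-52190007 of Btau_3.1) read 4.17, 3.83, 3.56 and 3.24 on the first slide and 4.53, 4.42, 5.69 and 6.15 on the second. It was detected on all 8 arrays, and 4 h and 16 h did not overlap the rest. The mean of 4 h and 16 h was 3.89-fold that of the other 6, which is 1.96 ± 0.31 (log2, spots). Against CTR the fold was 2.86 at 4 h and 3.92 at 16 h, so only 16 h passed the threshold of 3-fold. The order was 16 h, 4 h, 30 min, 2 h, CTR, 8 h, 12 h and 24 h, and the steps from 4 h to 30 min and from CTR to 8 h were larger than the spread between spots of both arrays.

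A second FASN probe shares 45 bases with it and had an outlier mark at 16 h, so it was not counted for 4 h and 16 h together. Its level was 5.62 at 4 h and 3.33 to 4.40 on the 6 arrays other than 4 h and 16 h, and its 4 h value was 3.30-fold that of CTR. The probe A_73_104455 lies 398 bases upstream in the build. It was at -0.39, -2.12, -1.01 and -2.08 on the first slide and at 0.03, -0.21, 2.73 and 2.53 on the second, which put 4 h and 16 h at least 7.20-fold above the other 6. A_73_101920, 1167 bases upstream, was detected only at 4 h (0.36) and 16 h (0.24), and the latter did not clear the detection limit of 24 h. A_73_P113101, 5703 bases upstream, was not detected on any array. The 5 FASN probes, in order from the most upstream, were thus detected on 0, 2, 4, 8 and 8 arrays.

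ACACA, acetyl-CoA carboxylase alpha, makes the malonyl-CoA that FASN uses. Its 3 probes, on chromosome 19 of the build, were dim on all 8 arrays, so no fold can be given. The highest level of any of them was -1.91, at 4 h, below the detection limit of that array (-1.73).

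SCD, stearoyl-CoA desaturase, puts the double bond into stearate and so makes the oleate of milk fat. Its 7 probes come from 1 record and several overlap. The probe that stands for the gene (A_73_P287219) read 3.38, 4.05, 3.70 and 4.10 on the first slide and 5.43, 5.45, 6.85 and 6.97 on the second. Each array of the second slide was higher than each of the first, and 4 h and 16 h were the highest and did not differ beyond the spread between spots. The mean of 4 h and 16 h was 5.89-fold that of the other 6. It was 2.77-fold that of 30 min and 2 h, and 8.58-fold that of the first slide.

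Against CTR the 4 arrays of the second slide were 4.13, 4.20, 11.05 and 12.03-fold on this probe. At 8 h, 12 h and 24 h it was 1.25 to 1.64-fold. All 7 SCD probes passed 3-fold at 4 h and at 16 h, 4 did at 30 min and 3 at 2 h. The probe A_73_106141, which shares 50 bases with the first, went another way at 2 h: it read 3.33 in CTR and 5.37, 2.36, 7.08 and 7.62 on the second slide, so its 2 h value was 0.51-fold that of CTR. The 6 other SCD probes were higher at 2 h than in CTR.

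A pair of SCD probes overlap by 54 bases with 1 difference, T16C, counted from the 5′ end of A_73_P252739. The 29 bases around it are shown with the differing base in capitals.
A_73_P252739: agttcaagaaagctTgatgtcaaagttat
A_73_P285671: agttcaagaaagctCgatgtcaaagttat
The first was detected on all 8 arrays and the second on 5, the exceptions being CTR, 8 h and 24 h. The first read 1.68, 1.501, 1.57 and 2.13 on the first slide and 3.29, 3.31, 6.27 and 5.40 on the second. Their means of 4 h and 16 h exceeded those of the other 6 by 12.01-fold on the first and at least 11.8-fold on the second. A_73_P101286, whose sequence is shown above, was detected at 2 h, 4 h and 16 h, and 4 h and 16 h were at least 8.52-fold above the other 6.

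LPL, lipoprotein lipase, frees fatty acids from circulating lipoproteins. Its probe with the highest mean level was at the lowest value of the array on all of the first slide (-2.51, -2.68, -3.36 and -2.08). On the second slide it read 1.44, 1.25, 4.12 and 2.80. It was detected on the 4 arrays of the second slide and on none of the first slide. Its level exceeded that of CTR at least 19.97-fold at 4 h, and 7.99-fold was the bound for 16 h, while 4 h and 16 h were 4.35-fold above 30 min and 2 h. The 4 h value exceeded that of 16 h by 1.32, more than the spread between spots (0.58). The other LPL probes were detected at 2 h and 4 h, with levels of -0.20 and 2.64, and at 4 h alone (-0.77).

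CD36 is a membrane protein that takes up long-chain fatty acids and a component of the milk fat globule membrane. It was not called for 4 h and 16 h, since 30 min lay above 16 h. Its probe A_73_P031456 was dim on all of the first slide (-2.51, -2.68, -3.36 and -2.08) and read 3.24, 2.43, 3.49 and 2.94 on the second. The 4 detected arrays are those of the second slide, and no step between neighbours in their order was larger than the spread between spots. They lay at least 10.8, 6.18, 12.9 and 8.78-fold above CTR, in order of time. The mean of 4 h and 16 h was 1.30-fold that of 30 min and 2 h, and at least 11.8-fold that of the first slide. Without the 30 min array, 4 h and 16 h lay above all the others. The step from 16 h to 2 h was 0.51, within the spread between spots (0.575). A_73_P283206, of the same record, was detected at 2 h (-1.29) and 4 h (-0.77). The 2 CD36 probes of another record, A_73_P252166 and A_73_P031081, placed on chromosome 4, were not detected on any array.

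FABP3, heart-type fatty acid binding protein, carries fatty acids in the cytosol and is abundant in the lactating gland. Its probe A_73_111582 (chr2:126267912-126267971) read -0.63, -1.69, -2.27 and -2.08 on the first slide and 1.36, 0.83, 7.20 and 6.32 on the second. It was detected on the second slide alone, and the gap from 16 h to 30 min, the next lower array, was 4.96. The 4 h and 16 h mean was 50.8-fold that of 30 min and 2 h and at least 137-fold that of the first slide. The bounds against CTR were at least 168-fold for 4 h and 91.8-fold for 16 h. The 2 other FABP3 probes were detected at 4 h and 16 h only. The one whose sequence is shown read 4.04 at 4 h and 1.25 at 16 h, and the other 1.60 and 0.53.

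The FABP3 probe in the dark region (A_73_P109351) was left out of all counts. It read -2.51, -2.68, -3.36 and -2.08 on the first slide and 1.32, 0.46, 6.89 and 6.03 on the second. With CTR set aside, it too was highest at 4 h and 16 h among the heated arrays.

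LPIN1, a phosphatidate phosphatase of triglyceride synthesis, was dim on all 8 arrays with its 3 probes. Its highest level was -1.23, in CTR, below the detection limit of -0.20.

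PLIN2, perilipin 2 or adipophilin, coats lipid droplets and remains on the secreted globule. Its single probe (chr8:26640754-26640813) was detected on all 8 arrays and read 0.14, 1.39, 0.66 and 0.64 on the first slide and 3.31, 3.08, 2.63 and 3.84 on the second. All arrays of the second slide were above all of the first, but 4 h was the lowest of its slide. The mean of 4 h and 16 h was 1.03-fold that of 30 min and 2 h, a difference of 0.04 that lies within the error of 0.34. Against CTR the fold was 9.03, 7.69, 5.63 and 13.02 on the second slide, and 2.38, 1.44 and 1.42 for 8 h, 12 h and 24 h.

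BTN1A1, butyrophilin, is the most abundant protein of the milk fat globule membrane and, with XDH and PLIN2, belongs to the complex that joins the droplet to the apical membrane. Its probe A_73_114446 (chr23:31598177-31598236) read -2.51, -2.68, -3.36 and -2.08 on the first slide and -3.31, -4.27, 4.91 and 6.04 on the second. It was detected at 4 h and 16 h and on no other array, and so were both other BTN1A1 probes. The 4 h and 16 h mean was at least 80.6-fold above 30 min and 2 h and at least 56.4-fold above the first slide. At 16 h it was 1.14 higher than at 4 h, beyond the spread between spots. The other probes read 1.32 and 0.82 at 4 h and 1.16 on both at 16 h. With those levels near the detection limit, their 4 h and 16 h means were at least 3.37 and 2.83-fold above the other 6.

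XDH, xanthine dehydrogenase, has a structural part in globule secretion besides its enzyme activity in purine breakdown. Its single probe read 3.93, 3.88, 3.22 and 4.07 on the first slide and 3.52, 3.097, 5.08 and 5.42 on the second. It was detected on all 8 arrays, and 4 h and 16 h lay above the others while 30 min and 2 h did not. The mean of 4 h and 16 h was 3.85-fold that of 30 min and 2 h and 2.78-fold that of the first slide. No time point reached 3-fold from CTR, and the fold was 2.23 at 4 h and 2.81 at 16 h. The probe lies 5 columns beyond the edge of the dark region.

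**Figure D2:**
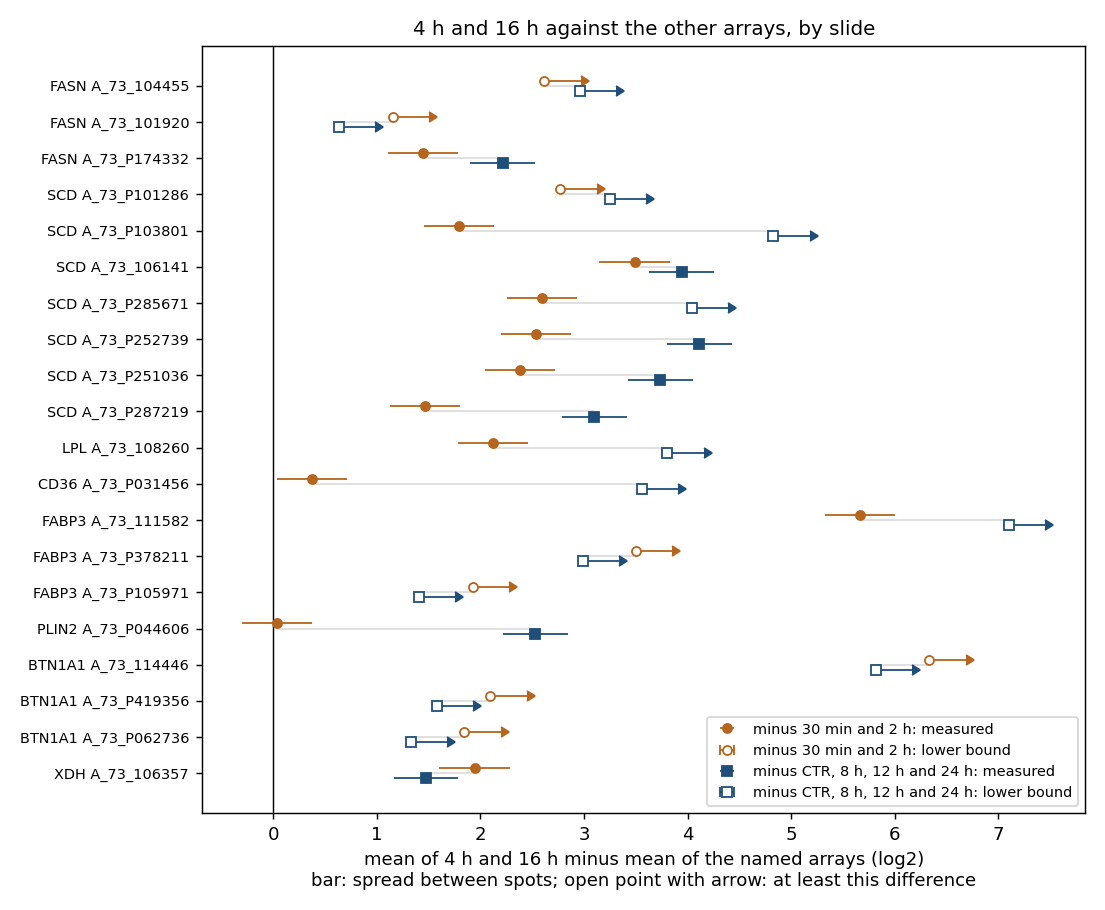
Differences in log2 signal (horizontal axis) between the mean of 4 h and 16 h and that of the other arrays, for the member probes detected at both (vertical axis). Orange circles are the difference from 30 min and 2 h, which share the slide, and blue squares that from the 4 arrays of the other slide. Filled points are measured, with the error from the spread between spots as bars, and open points with an arrow are lower bounds, since the probe was dim on an array compared with. PLIN2 and CD36 are at 0.04 and 0.38 within the slide, and BTN1A1 A_73_114446 is at 6.33 or more.

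Within the slide of 4 h and 16 h the same 17 probes lay above both 30 min and 2 h, which their call already requires. No further member probe was called there, and 24.3% of all probes tested were. The median difference from 30 min and 2 h was 2.03 over the members, against 0.22 over the probes detected on an array, and 1.46 against 0.05 with dim values at the detection limit. From the 4 arrays of the other slide it was 3.17 against -0.06, and 1.60 against -0.23 with dim values at the limit. PLIN2 thus differed by slide and not between 4 h and 16 h and the rest of their slide. CD36 did likewise with 30 min included, but without it 4 h and 16 h lay above 2 h. The probes that stand for BTN1A1 and XDH set 4 h and 16 h apart with 30 min and 2 h dim or below CTR. Those of SCD, LPL and FABP3 differed by slide and also set 4 h and 16 h apart. That of FASN had the same order, with a step of 0.24 from 2 h to CTR that was within the spread between spots (0.35). These groupings were made after the values were seen. Genes outside the members also differed by slide, with FABP4 higher on the second slide and KRT8 and PLIN5 lower. The share of all probes that did so was not counted.

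Changes from CTR were counted at 3-fold, the threshold of the study. Member shares are over all 33 probes, dim ones included, and those of the array over the 17984 probes detected on an array. At 4 h, 17 member probes (51.5%) of 7 genes passed it upward, against 1.95% of probes tested. At 16 h 14 probes (42.4%) of the same 7 genes did, against 3.4%. At 30 min 7 probes (21.2%) passed, of CD36, LPL, PLIN2 and SCD, against 4.54%. At 2 h 5 (15.2%) passed, of CD36, PLIN2 and SCD, against 4.19%. None passed at 8 h, 12 h or 24 h, where 0.311%, 0.0778% and 0.0445% of probes tested did. No member probe was called 3-fold lower than CTR at any time point, but only the 8 of 33 detected in CTR could be. Of the 17984 probes tested, 11024 were detected in CTR, and 10.4% of the 17984 were called lower at 1 or more time points. The members' count is thus not comparable with that share.

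**Figure D3:**
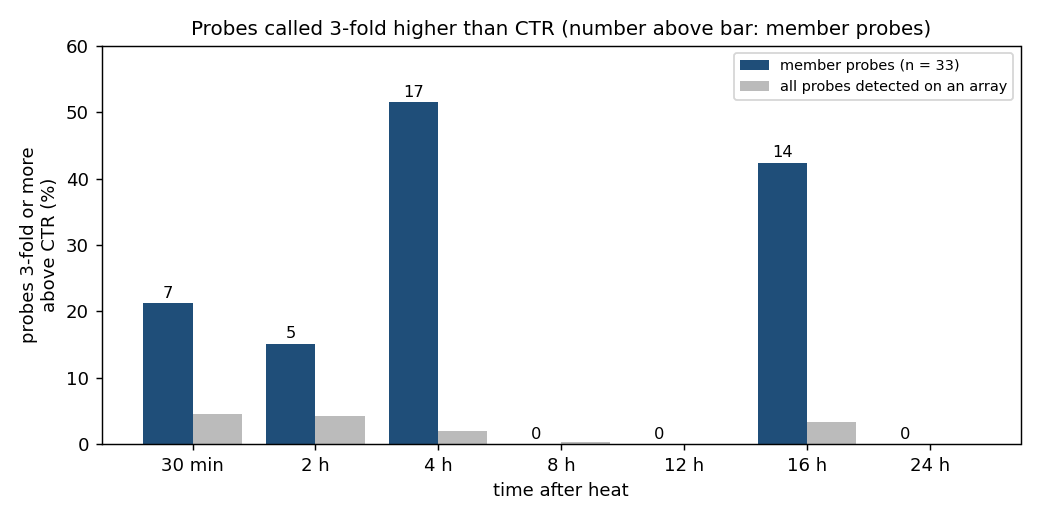
Share of probes (vertical axis, percent) that were 3-fold or more above CTR at each time after heat (horizontal axis), for the 33 member probes in blue and for all probes detected on an array in grey. The numbers above the blue bars count member probes: 17 at 4 h, 14 at 16 h, 7 at 30 min, 5 at 2 h and 0 on the other 3 arrays.

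Other genes of milk fat formation were taken from 6 lists, of which OLAH, HACD3, GPAT3, GPAT4 and BTN2A2 are not gene names on the array. Their shares are over all kept probes of a list, for which 4.21% is the share over the array. In the list of globule and lipid droplet genes, 10 of 24 probes lay above all other arrays at 4 h and 16 h (41.7%), from 5 of 12 genes. CIDEA, which controls the size of milk lipid droplets, read 6.41 at 4 h and 5.86 at 16 h, 0.58 at 30 min, -0.01 at 2 h, and was dim at -2.08 to -3.36 on the first slide. MUC15, a mucin of the globule membrane, was detected only at 4 h (2.75) and 16 h (3.14). MFGE8, lactadherin, was detected only at 4 h (1.63) and 16 h (0.69). The other 2 were MUC1 and PLIN3. PLIN5 and BTN2A1 were instead lower on the second slide, and neither was called, with 30 min and 2 h low too. PLIN5 read 2.74 to 3.24 on the first slide and 0.64 to 1.59 on the second. BTN2A1 read 1.11 to 1.91 on the first slide and -1.95 to -1.16 on the second, where it was dim at 30 min and 16 h. CIDEB and CIDEC were detected with no call. PLIN1 and PLIN4, droplet coats of adipocytes, were dim on all 8 arrays.

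Fatty acid synthesis and activation had 10 of 54 probes above at 4 h and 16 h (18.5%) and 1 below. ACSS2, which activates acetate in the cytosol, was dim in CTR (-2.51), was detected at 2 h (-0.06), and read 2.98 at 4 h and 1.79 at 16 h. ACSL1, which activates long-chain fatty acids, was dim in CTR (-0.47) and read 2.76, 2.38, 3.51 and 4.34 on the second slide. ACSS1, the mitochondrial enzyme, read 0.97 and 1.05 at 30 min and 2 h, 1.91 at 4 h and 1.82 at 16 h, and was dim on the first slide. The other genes with a probe above were ACSL3, ELOVL1, IDH1, ME1 and TECR. The gene below was ACSL4, at 0.88 at 4 h and dim at 16 h (-0.54) against 2.08 to 2.61 elsewhere. It is named after its values were seen.

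Triglyceride synthesis had 4 of 36 probes above (11.1%). GPAM, the mitochondrial acyltransferase of the first step, read 4.41 at 4 h and 4.30 at 16 h, and between -1.88 (30 min) and 0.62 (CTR) on the other 6 arrays. AGPAT6, an acyltransferase of the endoplasmic reticulum now also called GPAT4, read 4.21, 3.74, 3.81 and 4.23 on the first slide and 4.91, 5.05, 6.01 and 6.66 on the second. AGPAT1 moved less, with 3.35 at 4 h and 3.38 at 16 h against 2.17 to 2.87. DGAT1, the last enzyme of the pathway, was detected at 2 h, 4 h and 12 h with no call.

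Uptake and binding had 3 of 23 probes above (13.0%), from SLC27A4, VLDLR and SLC27A1. SLC27A4 and SLC27A1 are fatty acid transport proteins and VLDLR a lipoprotein receptor. Their differences between the mean of 4 h and 16 h and that of the other 6 arrays were 1.17, 1.12 and 0.84. FABP4, the fatty acid binding protein of adipocytes and macrophages, read 5.38, 5.72, 5.59 and 5.72 on the second slide and, like CD36, was dim on the first (-1.08 to -0.26).

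Of the regulators, 1 of 24 probes was above (4.17%). It was that of SREBF1, the transcription factor that drives lipogenic genes, which was dim on the first slide and read -0.47 at 2 h, 0.49 at 4 h and 1.17 at 16 h. PPARG, a nuclear receptor of lipid storage, was at 1.84 and 1.76 at 30 min and 2 h and at -0.38 and 0.95 at 4 h and 16 h. Fatty acid oxidation and lipolysis had 1 of 37 probes above (2.70%). ACADVL, the very long-chain dehydrogenase, read 4.62 at 4 h, inside the 3.86 to 5.00 of the other 6 arrays, and 5.15 at 16 h. HADHA, of the trifunctional protein, read 2.33 at 4 h, inside their 1.86 to 2.93, and 2.94 at 16 h, and the probe above was another of its 3.

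**Figure D4:**
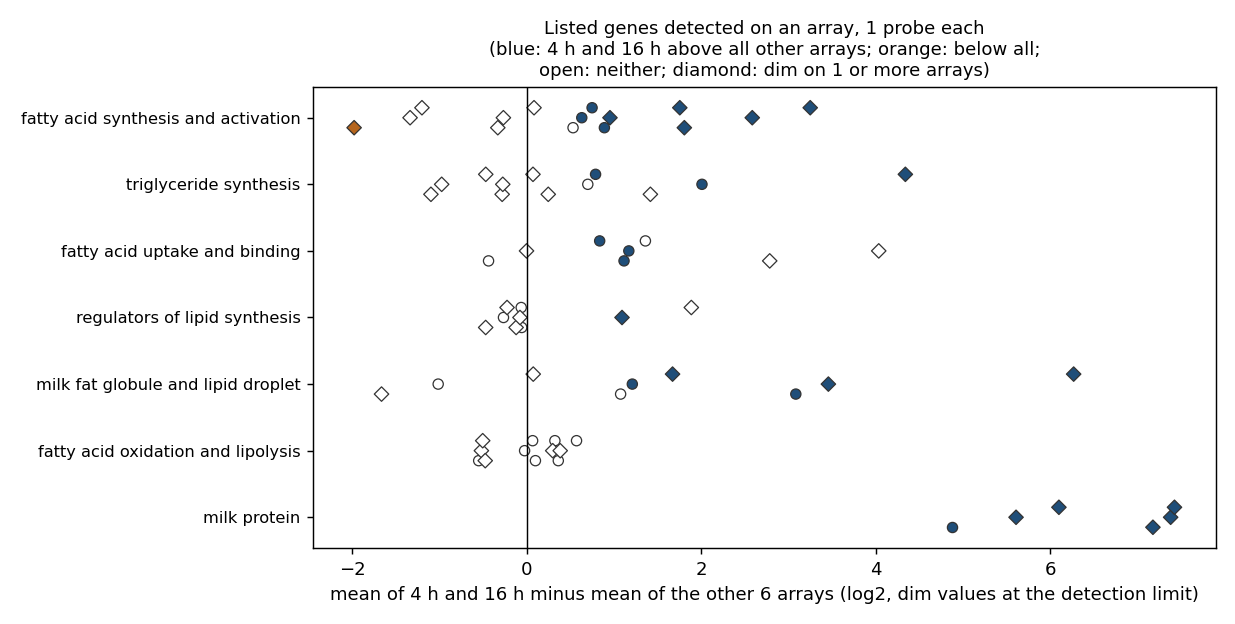
Each point is a listed gene that was detected on an array, by 1 probe, with the mean of 4 h and 16 h minus the mean of the other 6 arrays (horizontal axis, log2, dim values at the detection limit) in its list (vertical axis). Blue points lay above all other arrays at 4 h and 16 h, orange ones below all, and open ones neither, and diamonds were dim on 1 or more arrays. The 6 milk protein genes are all blue, with CSN2 at 4.87 and the 5 diamonds at lower bounds of 5.61 to 7.42, and none of the oxidation genes is.

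Markers of other kinds moved on the same arrays. Of 20 milk protein probes, 19 were above all others at 4 h and 16 h, from all 6 of the 7 listed genes that are on the array. LALBA, alpha-lactalbumin, read 7.11 at 4 h and 7.91 at 16 h, 1.52 at 30 min and 0.36 at 2 h, and was dim on the first slide. CSN1S2 read 6.47 and 8.28, and CSN1S1 7.27 and 8.46, at 4 h and 16 h. Only CSN2 of the 6 genes was detected on the first slide, at 1.99 to 2.30. The sum of their linear levels was 138, 68.1, 721 and 1623 on the second slide, against 4.89 to 6.31 on the first. Its part in the result was not tested.

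The summed level of the leukocyte and macrophage list was 72.3 at 30 min and 49.7 at 2 h, where 5 of its 6 genes were detected, against 13.6 and 22.3 at 4 h and 16 h and 5.49 to 8.17 on the first slide. CD68 (5.17 and 4.38) and CSF1R (4.39 and 3.95) made up most of it at 30 min and 2 h. AIF1 was lower there (1.17 and 1.07) than in CTR (1.66) and highest at 16 h (2.55). CD14 was detected at 30 min and 2 h only. ITGAM was dim on all 8 arrays. PTPRC was called for 4 h and 16 h, at 3.41 and 3.37 with 3.16 at 30 min and 3.11 at 2 h. The epithelial sum was 199 to 455 on the second slide and 451 to 618 on the first slide, with CDH1 at 3.77 and 3.78 at 4 h and 16 h against 2.34 to 3.53 on the others. Of the fibroblast markers, VIM, a mesenchymal intermediate filament, was lower at 4 h (5.65) and 16 h (5.94) than on all others (6.56 to 7.48) with 3 of its 5 probes below, and DCN, the matrix proteoglycan decorin, had 4 of its 7 probes above, but not the one that stands for it. The fibroblast sum, mostly VIM, was 52.9 and 76.7 at 4 h and 16 h, and 95.9 to 186 on the others. Not all fibroblast markers were lower: COL1A2 was detected only at 4 h (-0.93) and 16 h (2.94), and LUM and PDGFRA only at 16 h. At 16 h 7 of the 8 fibroblast genes were detected, against 1 to 5 on the others. Of the adipocyte markers, FABP4 and CIDEC were detected and ADIPOQ, LEP, LIPE and PLIN1 were dim on all 8 arrays. Of the endothelial markers, VWF was detected on the 4 arrays of the second slide, PECAM1 at 16 h, and CDH5, KDR and TEK on none. The part of these lists in the results was not tested, and slide and the difference between 30 min, 2 h, 4 h and 16 h and the rest cannot be told apart.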

How the data were processed

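RNA of 8 conditions of buffalo MECs was hybridised to bovine arrays, 1 array each. The authors deposited the scanner intensity of each spot from Feature Extraction 9.5.3.1, without scaling between arrays, and log2 values shifted to the 75th percentile and centred on each probe's median over the 8 arrays. Here log2 intensity minus the array's 75th percentile was used, with spots of 1 probe averaged, outlier-marked spots left out, and probes at rows 216 to 330 and columns 30 to 59 left out. The 30 min scanner intensities departed from the deposited log2 values, so 30 min was taken as CTR plus its deposited difference from CTR, with the spot SD of CTR assumed for its error. Probe coordinates are those of the files (Btau_3.1), and the exon or UTR of a probe was not looked up.

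A probe was called above for 4 h and 16 h when detected on both and above all the other 6 arrays. It was called below when detected on all the other 6 and below each of them. Dim values were set at their detection limit. Changes of 3-fold from CTR were also called, where the probe was detected on the higher array. Every probe of each member was described. From the other lists the text names up to 3 called genes with the largest difference, else the 2 with the highest level, by the probe with the highest mean level. Further genes of these lists, such as DGAT1, PPARG, PLIN5 and BTN2A1, are named outside this rule. The members and lists were chosen with earlier results of these data known. No significance test was made. The calling procedure was checked on simulated arrays with known changes. Alternatives used limma 3.58.1 in R 4.3.3 (normexp with an offset of 50, quantile), other scalings, filters and reference arrays.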

Additional observations from a re-analysis of the deposited data

How the results depend on the processing

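No paired analysis was possible because each condition had 1 array. The number of member probes above all other arrays at 4 h and 16 h was 17. It stayed between 16 and 20 except under 3 alternatives. It was 10 with the 30 min scanner intensities, and 6 of 8 with only probes well above background on all arrays other than 30 min. With genes by their brightest probe it was 6 of 10. Where arrays were left out of the comparison (30 min, or the other slide), the count could not fall. The members' median difference, 2.82, was 3.19 with the median of all probes in place of the 75th percentile, which moved the median of all probes by 0.37 (0.13 with quantile normalization and 0.105 with normexp), and it was 1.79 with normexp, 1.42 with a common floor, 1.67 with dim values at the detection limit, 2.03 against the same slide and 3.17 against the other slide. Within the slide the median, 2.03, was 1.31 with normexp, 1.12 with the 30 min scanner intensities, 0.92 with a common floor and 1.46 with dim values at the limit. Counts of 3-fold rises at 30 min, 2 h, 4 h and 16 h, of 7, 5, 17 and 14, were 4, 3, 6 and 6 with only probes detected on all arrays other than 30 min. With values as measured they were 8 at 2 h and 22 at 16 h, and with the median they were 9 at 2 h. The counts at 8 h, 12 h and 24 h were 0 under all 13 alternatives. No difference of the members' median or of the 8 detected genes changed sign under the alternatives run for it. The limits on dim values and the wider dark region were added after the data were seen. The cause of these shifts was not tested. On the probes that stand for BTN1A1, FABP3, LPL and CD36, dim signal limits the folds against CTR and the first slide to bounds. For BTN1A1 this holds within its slide too. Some FASN and SCD probes are also limited to bounds against CTR.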
